A study of Saccharomyces cerevisiae with 8 samples.

Results

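The 56 genes described here encode the proteins of the small subunit of the cytosolic ribosome of *Saccharomyces cerevisiae*, from *RPS0A* to *RPS31*. They were chosen by their ORF names, with no use of measured values, and every one of them had an entry among the 6152 ORFs of the arrays. They encode 32 proteins, since 24 proteins are made from a pair of paralogous genes (A and B copies) and 8 from a single gene. CECT10094 and Temohaya-MI26, strains that the study describes as more and less tolerant to ethanol, were grown in GPY medium with 0 or 10% (v/v) ethanol. RNA was taken after 1 h (early) and again at a later stage (late), which was 10 h at 0% ethanol in both strains. At 10% ethanol it was 28 h for CECT10094 and 40 h for Temohaya-MI26. In the late comparison ethanol and hours of culture therefore cannot be told apart. In the labels CECT10094 is named PE35M and the late samples are assigned to exponential phase, whereas by the study's methods that phase had then ended. Each sample was labelled with Cy5 and hybridized on spotted arrays against a Cy3-labelled pool of RNA from all samples, and the authors combined 3 slides per condition into 1 column of log2 ratios, giving 8 columns. A log2 ratio of 1 is a signal at 2 times that of the pool. There is thus no replicate check within a condition, and the precision is limited by how few arrays there are.

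The small subunit binds the mRNA, scans it with the initiator tRNA and checks the pairing between codon and anticodon in the decoding centre. Its proteins surround the ribosomal RNA in a head and a body, between which the mRNA passes. In yeast the ribosomal protein genes are among the most strongly transcribed genes of growing cells, they share activators such as Rap1, Ifh1 and Fhl1, and they are known to be turned down together when growth is checked by stress. Many of the paralogous copies are nearly identical in their coding sequence, so on spotted products the signal of a copy may include that of its partner, and the copies of such a pair cannot be told apart with certainty.

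The effect of ethanol was taken as the log2 ratio at 10% minus that at 0% ethanol, in each strain at each stage. The medians of this difference over all genes were 0.42 and -0.08 early and -0.51 and -0.25 late in CECT10094 and Temohaya-MI26, and changes are therefore given relative to the median of all genes unless stated otherwise. A gene was said to have fallen or risen when its difference was farther than about 2.0 standard deviations (SD) from the mean over all genes, the limit of the study's methods. This limit picks out the tails and gives no p. The false discovery rate that the study applied in addition was not applied to these calls. Before subtraction of the median, it stood early at -1.53 and 2.29 in CECT10094 and at -2.21 and 2.07 in Temohaya-MI26, and late at -2.27 and 1.23 and at -1.71 and 1.25. Differences were available for 48 members in each strain early, and for 55 in CECT10094 and 54 in Temohaya-MI26 late. Values in all 8 columns were present for 46 members, and *RPS8A* had values in only 3 columns.

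The members moved together within the columns. Their median log2 ratio was 1.00 in CECT10094 and 1.34 in Temohaya-MI26 at 1 h without ethanol, against -1.71 and -1.78 at 1 h with ethanol. In the late columns it was 0.23 at 0% and -0.13 at 10% ethanol in CECT10094, and -0.64 and 0.19 in Temohaya-MI26. The early cultures without ethanol thus had the highest levels and the early cultures with ethanol the lowest. Of the 46 members with all values, 39 had both early 0% columns above the other 6 columns, an order found for 508 of 5359 genes in all (9.48%). In 31 of the 46 both early 10% columns lay below the other 6, as in 525 of all genes (9.8%). Temohaya-MI26 at 1 h without ethanol was the highest single column in 39 of the 46 members and 13.3% of all genes. Temohaya-MI26 late without ethanol was the lowest of the 4 late columns in 42 of 54 members and 14.6% of 5474 genes.

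**Figure D1:**
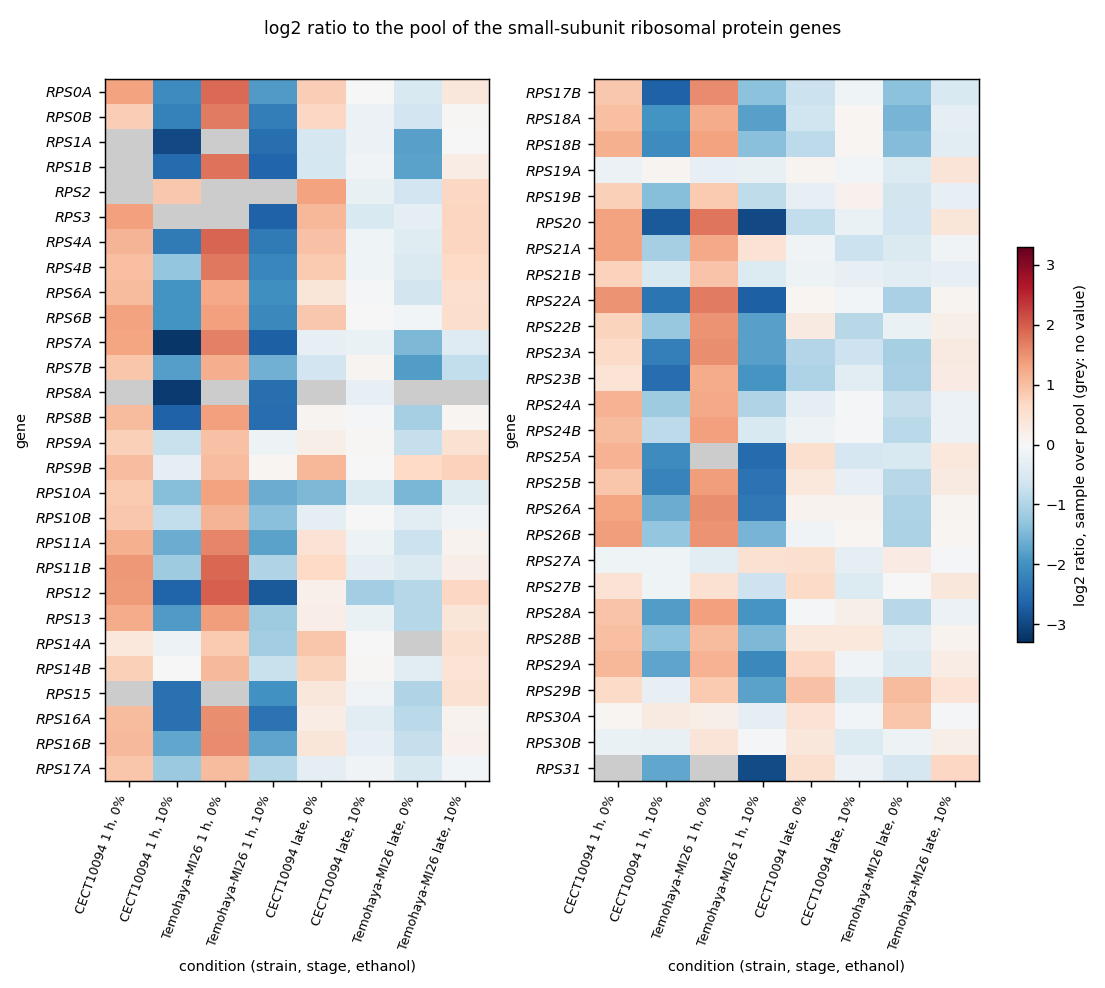
Log2 ratio of sample to pool of 55 small-subunit genes (rows) in the 8 columns, which are the combinations of strain, stage and ethanol; colour gives the log2 ratio and grey cells have no value. Most genes were high in both early columns without ethanol and low in both early columns with ethanol, while the late columns lay between, with medians from -0.64 to 0.23.

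After 1 h with ethanol, 37 of 48 measured members (77.1%) fell in CECT10094 and 34 of 48 (70.8%) in Temohaya-MI26, where 3.53 and 3.08% of all genes fell. No member rose in either strain, while 2.18 and 2.74% of all genes did. The median change of the members was -3.19 in CECT10094 and -2.90 in Temohaya-MI26, which is 9.15-fold and 7.47-fold lower than the median gene. Changes ran from -4.94 to -0.16 in CECT10094 and from -4.68 to 0.93 in Temohaya-MI26. Small-subunit genes took up 32 of the 100 lowest differences of CECT10094 and 28 of the 100 lowest of Temohaya-MI26. They were 48 of 6014 genes measured in CECT10094 and 48 of 5872 in Temohaya-MI26. Large-subunit ribosomal protein genes, with 63 and 61 measured, took up 30 and 27 of the same places.

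The lowest changes by the mean of both strains belonged to *RPS20*, *RPS7A*, *RPS12* and *RPS22A*. *RPS20* (YHL015W), a single gene for the head protein uS10, had log2 ratios of 1.33 at 0% and -2.77 at 10% ethanol in CECT10094 and 1.78 and -2.98 in Temohaya-MI26. *RPS7A* (YOR096W), a gene for the body protein eS7, had ratios of 1.30 at 0% and -3.22 at 10% ethanol in CECT10094 and 1.66 and -2.69 in Temohaya-MI26. In both genes the samples without ethanol stood well above the pool and those with ethanol well below it, and the strains were close to each other. Relative to all genes the change of *RPS7A* was -4.94 in CECT10094 and -4.27 in Temohaya-MI26, the lowest difference of any gene in CECT10094, and that of *RPS20* was -4.52 in CECT10094 and -4.68 in Temohaya-MI26. *RPS12* (YOR369C), a single gene for eS12 at the beak of the head, measured 1.40 at 0% and -2.65 at 10% ethanol in CECT10094 and 1.961 and -2.78 in Temohaya-MI26. For *RPS22A* (YJL190C), a gene for the body protein uS8, the values were 1.49 at 0% and -2.41 at 10% ethanol in CECT10094 and 1.70 and -2.71 in Temohaya-MI26. These genes showed the same order of samples, with changes of -4.48 in CECT10094 and -4.67 in Temohaya-MI26 for *RPS12* and -4.32 in CECT10094 and -4.33 in Temohaya-MI26 for *RPS22A*.

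A change common to both strains was tested with limma, fitted over all genes with strain and stage as a block, so that p sets the mean change of the strains against how far the strains differed and does not measure variation between cultures. Of 49 members tested, 41 were lower with ethanol early at an adjusted p under 0.05 and none was higher, where 6.94% of 5905 genes were lower and 10.5% higher. At an unadjusted p under 0.05, 44 were lower and 0 higher, beside 1830 of the 5905 genes in either direction. The estimates in this fit are not relative to the median of all genes. For *RPS7A* the log2 change was -4.43 (SE 0.38, limma adjusted p = 0.000141), and for *RPS20* it was -4.42 (SE 0.36, limma adjusted p = 0.00014). The 8 members tested and not called were *RPS9B*, *RPS14A*, *RPS14B*, *RPS19A*, *RPS27A*, *RPS27B*, *RPS30A* and *RPS30B*. The tests of *RPS1B* and *RPS25A* rest on a single strain, since 1 early value of each was missing in the other.

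**Figure D2:**
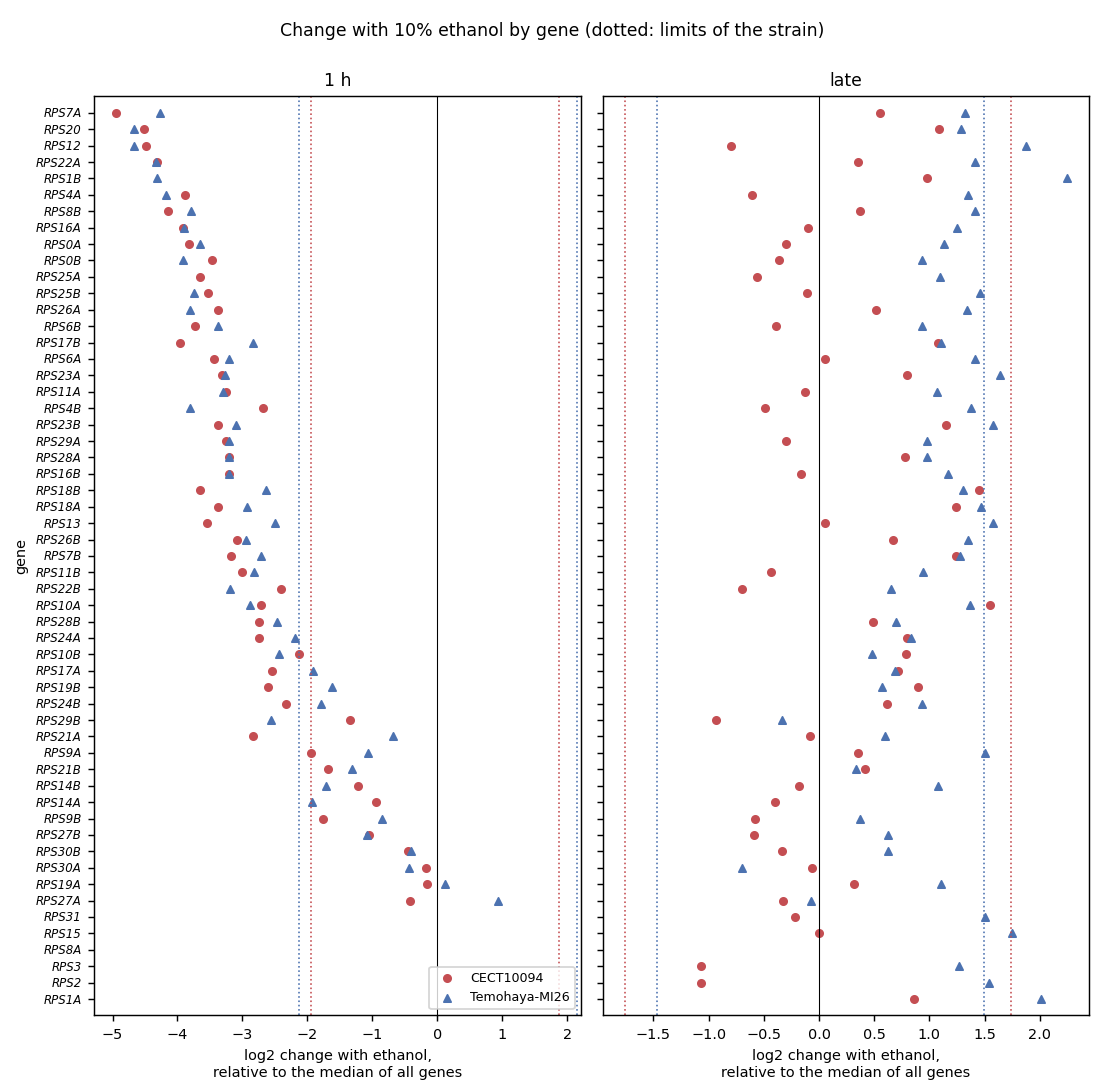
Change with 10% ethanol of 55 members relative to the median of all genes (x axis, log2; left 1 h, right late), CECT10094 as circles and Temohaya-MI26 as triangles, with dotted lines at the limits of each strain (about 2.0 SD) and the genes ordered by their mean early change. Early, most genes lay left of the limits in both strains, and 10 genes lay inside them in both; late, the triangles lay mostly to the right of the circles.

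Of the 47 members measured early in both strains, 32 fell in both. *RPS17A*, *RPS19B*, *RPS21A* and *RPS24B* fell in CECT10094 alone and *RPS29B* in Temohaya-MI26 alone. The difference between the strains could not be tested within a stage, since each condition has 1 column. Both copies were called in both strains for uS2 (*RPS0A*, *RPS0B*), eS4 (*RPS4A*, *RPS4B*), eS6 (*RPS6A*, *RPS6B*), the protein phosphorylated under control of the TORC1 kinase, and uS12 (*RPS23A*, *RPS23B*) of the decoding centre, among others. The 10 members inside the limits in both strains were *RPS9A*, *RPS9B*, *RPS14A*, *RPS14B*, *RPS19A*, *RPS21B*, *RPS27A*, *RPS27B*, *RPS30A* and *RPS30B*. They include both copies of 4 proteins, namely uS4 (*RPS9*), in which changes affect the accuracy of decoding, uS11 (*RPS14*) of the platform, the zinc-binding eS27 (*RPS27*) and eS30 (*RPS30*). At the edge of the limit in CECT10094, *RPS10B* (change of -2.14) lay just outside and *RPS9A* (-1.94) just inside. In Temohaya-MI26, *RPS24A* (-2.19) lay just outside and *RPS14A* (-1.93) just inside.

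The members with the highest early changes were *RPS27A*, *RPS19A*, *RPS30A* and *RPS30B*. *RPS27A* (YKL156W) had log2 ratios of -0.15 at 0% and -0.14 at 10% ethanol in CECT10094 and -0.35 and 0.51 in Temohaya-MI26. *RPS19A* (YOL121C), a gene for the head protein eS19, which is needed for maturation of the subunit, had ratios of -0.18 at 0% and 0.08 at 10% ethanol in CECT10094 and -0.28 and -0.24 in Temohaya-MI26. Both were below the pool without ethanol, unlike most members, and neither was lower with ethanol in either strain. Their changes relative to all genes were -0.41 in CECT10094 and 0.93 in Temohaya-MI26 for *RPS27A* and -0.16 in CECT10094 and 0.11 in Temohaya-MI26 for *RPS19A*. The Temohaya-MI26 values of these 2 genes were the only ones of the members above the median of all genes early. *RPS30A* (YLR287C-A) had ratios of 0.06 at 0% and 0.30 at 10% ethanol in CECT10094 and 0.21 and -0.31 in Temohaya-MI26, and *RPS30B* (YOR182C) of -0.22 at 0% and -0.24 at 10% ethanol in CECT10094 and 0.44 and -0.05 in Temohaya-MI26. Each of these values lay between -0.31 and 0.44, close to the pool, and the changes relative to all genes were -0.17 in CECT10094 and -0.44 in Temohaya-MI26 for *RPS30A* and -0.45 in CECT10094 and -0.41 in Temohaya-MI26 for *RPS30B*. Without subtraction of the median of all genes, *RPS19A*, *RPS30A* and *RPS27A* had early differences above 0 in CECT10094. By limma the early log2 change of *RPS27A* was 0.43 (SE 0.37, limma adjusted p = 0.478), so it did not exceed the spread between strains pooled over both stages.

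Of the 47 members measured in both strains early, the strains ordered them alike, with a Pearson correlation across genes of 0.87 (Spearman 0.842, n = 47), against 0.773 over 5814 genes. Genes are not independent replicates, and all values share 1 pool. The strain gap (CECT10094 minus Temohaya-MI26) had a median of -0.14 and an SD of 0.64 over the members, beside -0.07 and 0.70 over all genes. The widest gap early was that of *RPS21A* (YKR057W), a gene for eS21 with ratios of 1.32 at 0% and -1.10 at 10% ethanol in CECT10094 and 1.25 and 0.48 in Temohaya-MI26. This gene fell in CECT10094 (-2.84) and lay inside the limits in Temohaya-MI26 (-0.69); its ratio with ethanol was above the pool there. *RPS29B* (YDL061C), a gene for the zinc-binding head protein uS14, went the other way, with ratios of 0.63 at 0% and -0.28 at 10% ethanol in CECT10094 and 0.87 and -1.76 in Temohaya-MI26 and changes of -1.34 in CECT10094 and -2.56 in Temohaya-MI26.

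**Figure D3:**
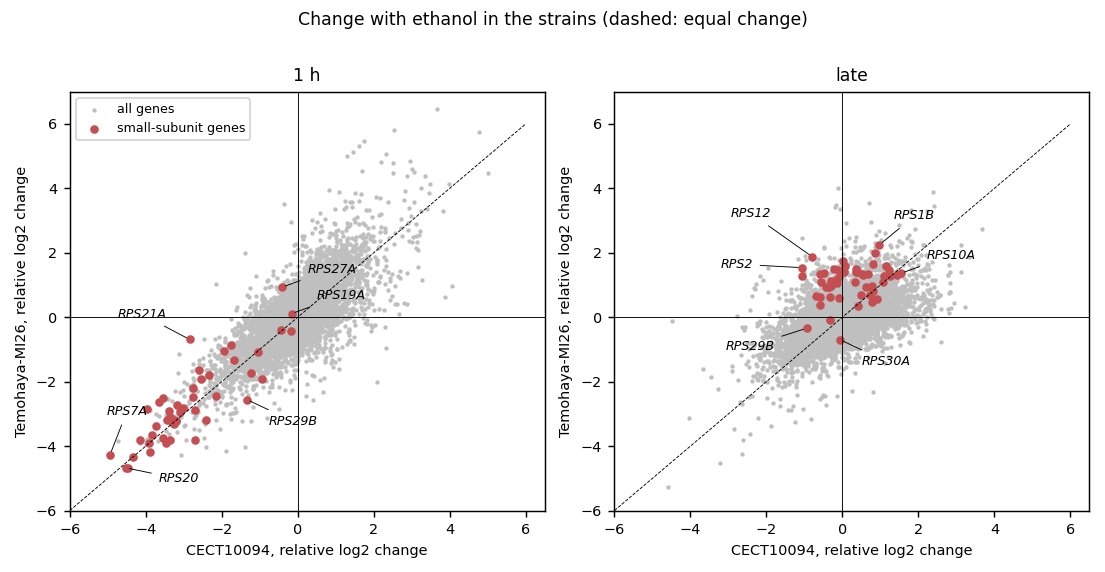
Change with ethanol in CECT10094 (x axis) against that in Temohaya-MI26 (y axis), log2 relative to the median of all genes, for all genes in grey and the small-subunit genes in red, early on the left and late on the right; the dashed line marks equal change. Early the members followed the line at its low end (Pearson correlation 0.87 across 47 genes), and late 47 of 54 lay above it.

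Grouped by place in the subunit, 16 of 18 head genes fell in CECT10094 and 14 of 17 in Temohaya-MI26, beside 21 of 30 and 20 of 31 body genes. Grouped by conservation, 15 of 20 and 16 of 20 genes of proteins found in all domains of life fell, beside 22 of 28 and 18 of 28 genes of proteins shared by eukaryotes and archaea or found in eukaryotes alone. The median changes were -3.24 and -2.88 for head genes and -3.05 and -2.94 for body genes. For the conserved proteins they were -3.29 and -3.14, and for those of eukaryotes and archaea -2.80 and -2.78. No difference between these groups was tested. All 3 measured single-copy genes, *RPS12*, *RPS13* and *RPS20*, fell in both strains.

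Several members could not be compared early, since a value was missing at 1 h without ethanol. In that column 7 members (12.5%, beside 1.58% of all genes) had no value in CECT10094 and 8 (14.3%, beside 2.21%) in Temohaya-MI26. *RPS1A*, *RPS2*, *RPS8A*, *RPS15* and *RPS31* were among those missing in both. *RPS2* encodes uS5, at the entry of the mRNA channel, *RPS15* the head protein uS19, and *RPS31* encodes a fusion of ubiquitin with eS31. With ethanol at 1 h, 7 of the missing members had a value in each strain, with a median log2 ratio of -2.55 in both strains, which lay below the median of all members. *RPS15* was at -2.47 in CECT10094 and -1.99 in Temohaya-MI26. *RPS31* was at -1.71 and -2.96. *RPS2* stood apart at 0.88 in CECT10094, the highest member of that column. The reason for the missing values was not tested.

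Late, no member fell in either strain, where 2.85% of all genes fell in CECT10094 and 2.51% in Temohaya-MI26. No member rose in CECT10094 (2.76% of all genes), and 10 of 54 (18.5%) rose in Temohaya-MI26, where 3.04% of all genes rose. These 10 were *RPS1A*, *RPS1B*, *RPS2*, *RPS9A*, *RPS12*, *RPS13*, *RPS15*, *RPS23A*, *RPS23B* and *RPS31*. The median change was 0.05 in CECT10094, with 29 members above and 26 below the median gene, and 1.21 in Temohaya-MI26, with 51 above and 3 below, which is 2.31-fold. Without subtraction of the median of all genes, the split in CECT10094 turned to 19 above and 36 below 0, and it stayed at 51 and 3 in Temohaya-MI26. The 3 members below in Temohaya-MI26 were *RPS27A*, *RPS29B* and *RPS30A*. On the arrays, ORFs of chromosomes I and III and the right arm of II lay 0.46 (CECT10094) and 0.69 (Temohaya-MI26) above the median of all genes in the late columns without ethanol, and 0.13 and 0.20 above it with ethanol. *RPS6B*, *RPS9B*, *RPS11B* and *RPS14A* lie there, and without them the late medians of the members were 0.32 and 1.27.

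The highest late changes by the mean of both strains were those of *RPS1B*, *RPS10A*, *RPS1A* and *RPS18B*. *RPS1B* (YML063W), a gene for the body protein eS1, had late log2 ratios of -0.57 at 0% and -0.10 at 10% ethanol in CECT10094 and -1.77 and 0.23 in Temohaya-MI26. Its copy *RPS1A* (YLR441C) measured -0.54 at 0% and -0.19 at 10% ethanol in CECT10094 and -1.78 and -0.02 in Temohaya-MI26. In both copies Temohaya-MI26 without ethanol was the lowest late sample, and the changes were 0.97 in CECT10094 and 2.25 in Temohaya-MI26 for *RPS1B* and 0.86 in CECT10094 and 2.01 in Temohaya-MI26 for *RPS1A*, the former 4.75-fold in Temohaya-MI26. *RPS10A* (YOR293W), a gene for the head protein eS10, had values of -1.48 at 0% and -0.44 at 10% ethanol in CECT10094 and -1.51 and -0.39 in Temohaya-MI26. *RPS18B* (YML026C), a gene for the head protein uS13, had -0.87 at 0% and 0.06 at 10% ethanol in CECT10094 and -1.43 and -0.37 in Temohaya-MI26. Here the strains changed by similar amounts, with 1.55 in CECT10094 and 1.37 in Temohaya-MI26 for *RPS10A* and 1.45 in CECT10094 and 1.30 in Temohaya-MI26 for *RPS18B*, inside the limits of both strains.

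At the low end, *RPS29B* had late ratios of 0.97 at 0% and -0.47 at 10% ethanol in CECT10094 and 1.05 and 0.46 in Temohaya-MI26. *RPS30A* had 0.47 at 0% and -0.10 at 10% ethanol in CECT10094 and 0.91 and -0.03 in Temohaya-MI26. *RPS27A* had 0.54 at 0% and -0.30 at 10% ethanol in CECT10094 and 0.28 and -0.04 in Temohaya-MI26. In these 3 genes both late samples without ethanol were above the pool, and those with ethanol lower. *RPS9B* had 1.10 at 0% and 0.01 at 10% ethanol in CECT10094 and 0.65 and 0.77 in Temohaya-MI26, and its Temohaya-MI26 value with ethanol was the highest of any member in that column. The late changes were -0.93 in CECT10094 and -0.34 in Temohaya-MI26 for *RPS29B* and -0.06 in CECT10094 and -0.70 in Temohaya-MI26 for *RPS30A*. They were -0.33 in CECT10094 and -0.08 in Temohaya-MI26 for *RPS27A* and -0.58 in CECT10094 and 0.37 in Temohaya-MI26 for *RPS9B*.

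By limma, 0 of 55 members passed an adjusted p of 0.05 late in either direction, where 7.01% of 5893 genes were lower and 0.815% higher. At an unadjusted p under 0.05, 1 member was lower and 8 higher. Of the 5893 genes 1578 passed in either direction, a larger share than of the members. The median late estimate over all genes in this fit was -0.36. With each column centred on its median, 20 members were higher and 0 lower at the same unadjusted p. Of the 5893 genes 1489 passed in that fit in either direction, a smaller share than of the members. At an adjusted p under 0.05, 6 members were higher in the centred fit (*RPS1B*, *RPS7B*, *RPS10A*, *RPS18A*, *RPS18B* and *RPS23B*), beside 2.14% of all genes. Their log2 changes ran from 1.21 to 1.56, with limma adjusted p from 0.0291 to 0.0481. With quantile normalization the count at that adjusted p was 0.

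Late, the strains ordered the members less alike. The Pearson correlation across 54 members was 0.25 (Spearman 0.224), beside 0.517 over 5474 genes. The change was higher in Temohaya-MI26 for 47 of 54 members, and the strain gap had a median of -1.03 and an SD of 0.76, beside 0.01 and 0.81 over all genes. For 22 members the relative change was below 0 in CECT10094 and above 0 in Temohaya-MI26, and none went the other way, beside 15.5 and 17.7% of 5474 genes. Without subtraction of the median of all genes this held for 32 members and 986 of all genes. The widest gaps were those of *RPS12*, *RPS2* and *RPS3*, which are single-copy genes. *RPS12* (YOR369C) had late ratios of 0.16 at 0% and -1.15 at 10% ethanol in CECT10094 and -0.94 and 0.69 in Temohaya-MI26. *RPS2* (YGL123W) had ratios of 1.34 at 0% and -0.24 at 10% ethanol in CECT10094 and -0.62 and 0.67 in Temohaya-MI26. *RPS3* (YNL178W), whose product uS3 lines the mRNA entry channel, had 1.09 at 0% and -0.49 at 10% ethanol in CECT10094 and -0.31 and 0.71 in Temohaya-MI26. In each of them the 2 strains moved in opposite directions with ethanol, with changes of -0.79 in CECT10094 and 1.88 in Temohaya-MI26 for *RPS12*, -1.07 in CECT10094 and 1.54 in Temohaya-MI26 for *RPS2* and -1.07 in CECT10094 and 1.27 in Temohaya-MI26 for *RPS3*. Taken as a signed median over the members, the gap between the strains was wider without ethanol than with it. Between the late 0% columns CECT10094 lay above Temohaya-MI26 by a median of 0.99 over the members, in 51 of 54, relative to all genes. Between the late 10% columns the median was -0.20, with 34 members below 0 and 21 above. Single members could differ, as in *RPS12*, with gaps of 1.08 at 0% and -1.62 at 10% ethanol. A strain difference common to both stages was tested with limma, and 0 of 46 members and 0.0% of 5359 genes passed an adjusted p of 0.05. At an unadjusted p under 0.05 there were 1 member and 172 of the 5359 genes.

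The other single-copy genes were all lower without ethanol in Temohaya-MI26 than with it late. The log2 ratios of *RPS15* were 0.38 at 0% and -0.12 at 10% ethanol in CECT10094 and -0.98 and 0.52 in Temohaya-MI26. For *RPS13*, which encodes uS15 of the body, they were 0.23 at 0% and -0.23 at 10% ethanol in CECT10094 and -0.94 and 0.39 in Temohaya-MI26. Both genes were lowest in Temohaya-MI26 without ethanol. *RPS31* measured 0.53 at 0% and -0.20 at 10% ethanol in CECT10094 and -0.56 and 0.69 in Temohaya-MI26. *RPS20* measured -0.81 at 0% and -0.23 at 10% ethanol in CECT10094 and -0.64 and 0.40 in Temohaya-MI26, and it was the only single-copy gene with a higher log2 ratio in CECT10094 with ethanol than without. With ethanol all of them, and *RPS2*, *RPS3* and *RPS12*, were higher in Temohaya-MI26 than without it, with relative changes from 1.27 to 1.88, and 5 of the 8 rose. In CECT10094 the 8 genes lay between -1.07 and 1.09, and none passed a limit.

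The stages differed for most members. In a test of the difference itself, the change with ethanol was lower early than late for 38 of 49 members by limma (adjusted p under 0.05) and higher for none, where 4.6% of 5869 genes were lower and 15.8% higher. At an unadjusted p under 0.05 the counts were 41 and 0, beside 2088 of the 5869 genes in either direction. For *RPS20* the difference between stages was -5.24 (SE 0.52, limma adjusted p = 0.000305), and for *RPS7A* it was -4.99 (SE 0.53, limma adjusted p = 0.000344). The members not called were *RPS9B*, *RPS14A*, *RPS14B*, *RPS19A*, *RPS21A*, *RPS21B*, *RPS27A*, *RPS27B*, *RPS29B*, *RPS30A* and *RPS30B*. Taken by culture, relative to all genes, the members were lower late than early without ethanol, by medians of -1.34 in CECT10094 (47 of 49 members below 0) and -2.72 in Temohaya-MI26 (45 of 47). With ethanol they were higher late than early, by 1.86 (53 of 55 above 0) and 1.66 (51 of 54).

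Copies of a pair had smaller gaps than members of different pairs. Early the median gap between the changes of the copies of a pair was 0.43 in CECT10094 (22 pairs) and 0.49 in Temohaya-MI26 (21 pairs), beside 1.07 and 1.24 between members of different pairs. Late it was 0.31 (23 pairs) and 0.27 (22 pairs), beside 0.71 and 0.46. The copies of *RPS23* had the smallest mean gap, 0.16 over the 4 comparisons. The widest was that of *RPS19*, at 1.32, followed by *RPS22* at 1.22 and *RPS29* at 1.13.

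In the *RPS19* pair, *RPS19B* (YNL302C) had early ratios of 0.78 at 0% and -1.41 at 10% ethanol in CECT10094 and 0.85 and -0.85 in Temohaya-MI26, beside values near the pool for *RPS19A* given above. Late, *RPS19A* had 0.10 at 0% and -0.09 at 10% ethanol in CECT10094 and -0.44 and 0.42 in Temohaya-MI26, and *RPS19B* had -0.26 at 0% and 0.13 at 10% ethanol in CECT10094 and -0.60 and -0.28 in Temohaya-MI26. The copies did not follow each other, with a Pearson correlation of -0.21 over the 8 columns. In the *RPS22* pair, *RPS22B* (YLR367W) had early ratios of 0.72 at 0% and -1.26 at 10% ethanol in CECT10094 and 1.48 and -1.79 in Temohaya-MI26, a drop smaller than that of *RPS22A* in both strains. Late, *RPS22A* had 0.07 at 0% and -0.09 at 10% ethanol in CECT10094 and -1.06 and 0.10 in Temohaya-MI26, and *RPS22B* had 0.29 at 0% and -0.92 at 10% ethanol in CECT10094 and -0.21 and 0.19 in Temohaya-MI26. Here the copies kept the same order of the 8 columns more closely (Pearson correlation 0.92). In the *RPS29* pair, *RPS29A* (YLR388W) had early ratios of 1.08 at 0% and -1.75 at 10% ethanol in CECT10094 and 1.15 and -2.13 in Temohaya-MI26, and late ratios of 0.69 at 0% and -0.12 at 10% ethanol in CECT10094 and -0.47 and 0.25 in Temohaya-MI26. *RPS29B* dropped less early in both strains and, unlike *RPS29A*, was high late in Temohaya-MI26 without ethanol (correlation 0.78). These correlations describe 8 columns that share 1 pool, and whether a gap lies in the RNA or in the hybridization was not tested.

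**Figure D4:**
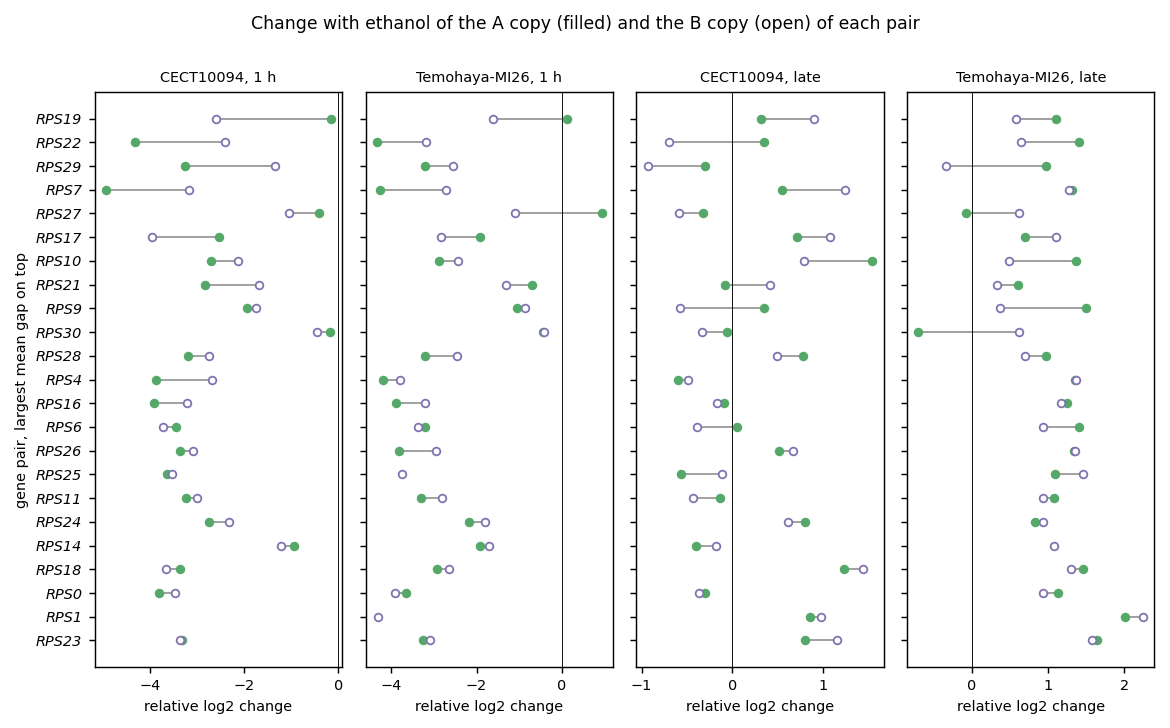
Change with ethanol of the A copy (filled) and the B copy (open) of each pair, joined by a line (x axis, log2 relative to the median of all genes, with its own range in each panel), in the 4 combinations of strain and stage, with the pairs ordered by their mean gap. Most joining lines were short, with median gaps of 0.27 to 0.49, and the pairs of RPS19, RPS22 and RPS29 stand at the top with mean gaps of 1.32, 1.22 and 1.13.

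Other genes of protein synthesis were set beside the members. Of the large-subunit ribosomal protein genes, the partners of the members in the ribosome, 53 of 67 tested were lower early by limma and 1 higher (0 higher with centred or quantile-normalized columns), with median changes of -2.50 in CECT10094 and -2.34 in Temohaya-MI26 early, and 0.06 and 0.93 late. Examples were *RPL24A* (log2 change -4.10, SE 0.38, limma adjusted p = 0.000235), *RPL20A* (-3.85, SE 0.38, limma adjusted p = 0.000256) and *RPP2B*, a stalk protein gene (-3.80, SE 0.42, limma adjusted p = 0.000439). Late, 1 of 74 was higher and none lower by limma, and over the alternatives 0 to 4 were higher and 0 to 1 lower. Factors that assemble the small subunit in the nucleolus and cytoplasm had medians of -1.05 and -1.01 early and of 0.24 and 0.25 late, and 6 of 21 were lower early, among them *DIM1*, an rRNA dimethylase (-1.51, SE 0.35, limma adjusted p = 0.0136), *IMP3* (-1.47) and *EMG1* (-1.45). Proteins that bind the small subunit, mostly initiation factors, were lower early in 5 of 15 cases, with medians of -1.17 and -0.92 early and 0.56 and 0.56 late. *STM1*, which binds ribosomes and preserves them in resting cells, had an early log2 change of -3.09 (SE 0.35, limma adjusted p = 0.000444), and the initiation factor genes *SUI3* and *TIF11* had -1.49 and -1.81.

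Of the regulators of ribosomal protein genes, 0 of 11 passed early by limma. At an unadjusted p under 0.05, 1 was higher and 0 lower, beside 1830 of 5905 genes in either direction. With centred columns 2 were lower and 0 higher, and with quantile normalization 1 was lower and 0 higher. The medians of the regulators were -0.48 and -0.19 early and 0.28 and 0.30 late. The early log2 changes were 0.85 (SE 0.36, limma adjusted p = 0.135) for the repressor *STB3*, -0.63 (SE 0.34) for *FHL1* and -0.54 (SE 0.35) for *RAP1*. Of the small-subunit proteins of the mitochondrial ribosome, encoded in the nucleus, 0 of 32 passed early. At an unadjusted p under 0.05, 2 were higher and 0 lower, and with centred columns 2 were higher and 2 lower. With genes with all values, a robust prior or the 4 columns of the stage, 1 passed as higher. The medians of the mitochondrial list were -0.32 and 0.13 early and 0.48 and 0.32 late. The smallest adjusted p belonged to *RSM22* (1.25, SE 0.42, limma adjusted p = 0.0632), followed by *MRPS18* (0.90, SE 0.34) and *MRPS35* (-0.85, SE 0.39). These lists were set beside the members as counts and medians, and no difference between lists was tested. Late, 1 of 21 assembly factors was lower, and 1 of 15 subunit-bound factors, 1 of 32 mitochondrial genes and 0 of 11 regulators were higher by limma. Over the alternative fits the count of the subunit-bound factors ran from 1 to 3. Of the assembly factors 0 to 1 were lower and 0 to 1 higher, and 1 was higher and 0 lower with centred columns. Of the mitochondrial genes 0 to 2 were lower and 1 was higher. In cultures measured in bulk, a change in the share of cells with a transcript and a change in RNA per cell cannot be told apart.

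**Figure D5:**
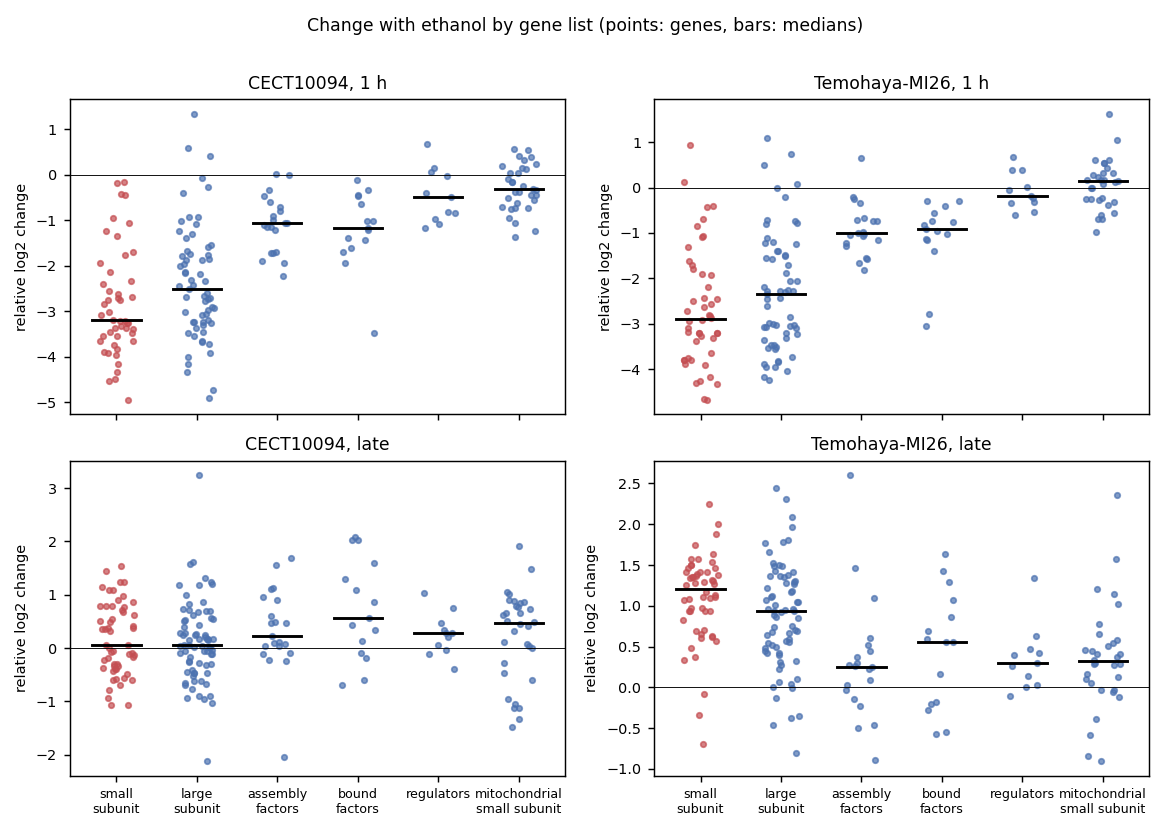
Change with ethanol of the small-subunit genes and of the related lists, log2 relative to the median of all genes (y axis), for each strain and stage, with a point for each gene and a bar at the median. Early, the medians of the small-subunit genes (-3.19 and -2.90) and the large-subunit genes (-2.50 and -2.34) lay below those of the other lists, which ran from -1.17 to 0.13.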

How the data were processed

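Gene expression of CECT10094 and Temohaya-MI26 was measured on spotted arrays in 8 conditions. GenePix Pro 6.0 was used by the authors to remove a global background and Acuity 4.0 for a ratio-based normalization, and the median of 3 slides was kept per condition, for spots with at least 2 replicates. The deposited values are log2 ratios of sample (Cy5) to pool (Cy3), without dye swap. The deposited table of differences between 10 and 0% ethanol holds the authors' own comparisons and was not used. Array build and spot sequences are not given in the sources used here, and depth is unknown.

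Of 6154 rows, 2 controls were left out. All 56 members were matched by ORF and symbol to the RefSeq assembly R64 table, used for names only. The test used limma 3.58.1 (R 4.3.3) on all 8 columns, with an ethanol term for each stage and the combination of strain and stage blocked, and Benjamini-Hochberg adjustment over every gene in the fit. The fit had 2 residual degrees of freedom and a prior of 9.17. The strain term was fitted in a second model with 1 residual degree of freedom and a prior of 45.9. The steps were tested on simulated data. Python 3.11.15 was used for the rest.

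Values in all columns were printed for the 4 lowest and highest mean changes per stage, members above 0 early, the 3 widest pairs and the 3 widest strain gaps per stage and the single-copy genes, and up to 3 genes by smallest adjusted p for each related list. The members are defined by ORF name, and both this group and the related lists were taken up with earlier results of these data known. After values were seen, *RPP1*, an RNase P subunit gene, was removed from the large-subunit list, where a name pattern had placed it wrongly. Of the names on the 5 related lists, 162 were matched and 1 was not. The alternatives were a wider limit of about 2.6 SD, a fixed difference of 1, centred or quantile-normalized columns, genes with all values, a mean in place of a median, members outside chromosomes I, II (right arm) and III, a robust prior, an adjusted p under 0.10, and a fit to the 4 columns of a stage. The values of 1 member are counted in the totals and not reported here by name. The search for promoter motifs and for coding identity was not run.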

Additional observations from a re-analysis of the deposited data

Results flagged for a closer look

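The change with ethanol differed between the stages for 38 of 49 members, being lower early than late in the limma test of that difference. On the log2 scale the difference was -5.24 for *RPS20* and -4.99 for *RPS7A*. It was -5.62 for *RPS1B*, whose early change rests on Temohaya-MI26 alone. Late samples with ethanol were taken after more hours than those without it, so the stage contrast holds a difference in hours as well.

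Late, the change with ethanol of 22 of 54 members (40.7%) lay below that of the median gene in CECT10094 and above it in Temohaya-MI26, as in 15.5% of all genes. Without subtraction of the median gene the count was 32. Early, 2 of 47 members, *RPS19A* and *RPS27A*, did so, beside 12.4% of all genes, and 0 did without the subtraction. With 1 column per condition, neither difference between the strains was tested.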

How the results depend on the processing

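Over the alternatives the early median of the members ran from -3.26 to -2.78 in CECT10094 and from -2.93 to -2.67 in Temohaya-MI26, and the late one from 1.08 to 1.27 in Temohaya-MI26. The late median of CECT10094 was near 0 and ran from 0.04 to 0.32, and its split around 0 turned without median subtraction (19 above and 36 below). At a fixed log2 difference of 1, 9 members fell and 1 rose late in CECT10094, and 27 rose late in Temohaya-MI26. This limit was set without subtraction of the median of all genes, which was -0.51 late in CECT10094. There 27.9% of all genes lay at or below *RPS4B*, which stood at the lower limit. The 9 of 55 members that fell were thus a smaller share than that of all genes. Late in Temohaya-MI26, 94.8% of all genes lay at or below *RPS16A*, which stood just past the upper limit. At about 2.6 SD, 2 rose late in Temohaya-MI26. The late count of members higher by limma was 6 with centred columns, 1 at an adjusted p under 0.10 and 1 with the 4 columns of the stage. Among single genes, *RPS21A* lost its early call under quantile normalization (-1.69, limma adjusted p = 0.0542), and *RPS9B*, *RPS14A* and *RPS14B* gained one with centred columns, among others (-1.28, -1.40 and -1.44). The causes were not tested.

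The fit set 10% against 0% ethanol within each strain and stage. No paired analysis by replicate was possible because the labels number no replicates, and each condition has 1 column. For the same reason no replicate was left out. The authors' difference table was not run as an alternative, since it holds their own comparisons. Signal over background is unknown, so the limit it sets on weak spots was not tested.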
